A study of Sus scrofa with 8 samples.

Results

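The interferon pathway and response genes on the porcine GeneChip array were taken as every gene whose single platform symbol starts with IFIT, IFITM, IFI and a digit (IFI30 excepted), ISG, OAS, GBP, IRF, STAT, IFNA, IFNB, IFNG, IFNL, JAK or SOCS, or is 1 of a fixed set of further names that includes MX1, MX2, RSAD2, USP18, EIF2AK2, DDX58, TYK2 and XAF1. The rule found 47 genes on 76 probe sets, out of 6765 genes with a symbol and 24123 probe sets in all, and used no measured value. Each gene was read from the probe set with its highest mean log2 intensity over the 8 arrays. The receptor genes IFNAR1, IFNAR2 and IFNGR1, which met the rule by their first letters, were counted as receptors. The genes IRF2BP1, ISG20L2 and JAKMIP1 share only a prefix with these families and were kept apart.

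The study isolated islets from neonatal pigs of different ages as a possible source for transplantation, and the arrays address which transcripts differ between 2 of these ages. Pancreases of male Duroc/Large white cross pigs, 4 aged 3 days and 4 aged 7 days, were digested mechanically and with collagenase. The tissue of both ages was then kept for 7 days in culture, in Ham's F10 with glucose, isobutylmethylxanthine and nicotinamide. Each array holds the total RNA of the islets of 1 pig (n = 4 per age, no pooling), without sorting, so other cells of the neonatal pancreas were still present.

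Interferons are secreted proteins that cells release when they sense viral nucleic acid or when immune cells are activated. Type I interferons bind the receptor pair IFNAR1 and IFNAR2, and interferon gamma binds IFNGR1 and its partner. Both receptors act through Janus kinases on STAT proteins, which together with IRF proteins switch on antiviral and antigen-presenting genes. In islets this response is known from viral infection and from the early stages of type 1 diabetes, where it raises MHC class I on the islet cells.

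Before any direction is given, the age labels need a remark. Of 108 probe sets that the study lists as changed with age and that could be matched, all 108 had the opposite sign here when the arrays were grouped by their deposited labels. None of the 108 belonged to the 47 genes. It could not be settled from the labels or the methods which of these was exchanged, so the arrays are called labelled 3-day-old and labelled 7-day-old, and each sign below would turn if the labels were exchanged. Sizes, spreads and calls do not depend on it.

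The values are linear intensities in arbitrary units, scaled by the authors to a trimmed mean of 500.1 on each array. The 20th percentile of an array lay between 26.4 and 31.3 and its median between 171.6 and 178.5. Islet hormone probe sets were bright at both ages, with INS at 24649 ± 2214 and 23694 ± 4216 (SD, n = 4). The 3′ to 5′ signal ratio of actin, a sign of RNA integrity, ran from 2.18 to 2.67 in the arrays labelled 3-day-old and from 2.38 to 2.81 in those labelled 7-day-old. The same ratio of GAPDH ran from 2.09 to 2.38 and from 1.64 to 2.35. With 4 arrays per age, the number of arrays limits the precision. Intensities of different probe sets are not on 1 scale, so levels are compared only between arrays, and a sum over a marker list is weighted to its brightest probe sets.

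Of the 47 genes, 44 were tested by limma with Benjamini-Hochberg adjustment over 21574 probe sets. IFNB1 and OAS1 did not pass the filter on low values, and the probe set read for RSAD2 bears a control's name. The mRNAs of 3 of them were lower in the arrays labelled 7-day-old, namely the receptor genes IFNGR1, IFNAR1 and IFNAR2, and 0 were higher. This is 6.82% of the tested genes, against 10.7% of all probe sets called in either direction (5.47% lower and 5.21% higher) and 12.2% when each gene has 1 probe set. At an unadjusted p under 0.05 there were 13 of the 44, with 11 lower and 2 higher, where 27.9% of all probe sets had such a p (13.8% lower and 14.1% higher). The study's own kind of test, called the methods' test below, called 2 lower and 1 higher after adjustment, beside 9.85% of all probe sets. The log2 difference was above 0 in 23 genes and below 0 in 21, with a median of 0.01 (all probe sets -0.00). The median size of the difference was 0.34 on the log2 scale, against 0.27 over all probe sets and 0.21 over all genes. Its median standard error was 0.17 for the tested genes, 0.17 over all probe sets and 0.13 over all genes. In 7 genes (15.9%) the 4 values of 1 age all lay above the 4 of the other, against 21.2% of all probe sets and 24.7% with 1 probe set per gene. The 3 with higher values in the arrays labelled 7-day-old (10.9% of all probe sets) were GBP2, IFI44L and IRF2BP1, and the 4 with lower values (10.3%) were the receptor genes and STAT3.

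**Figure D1:**
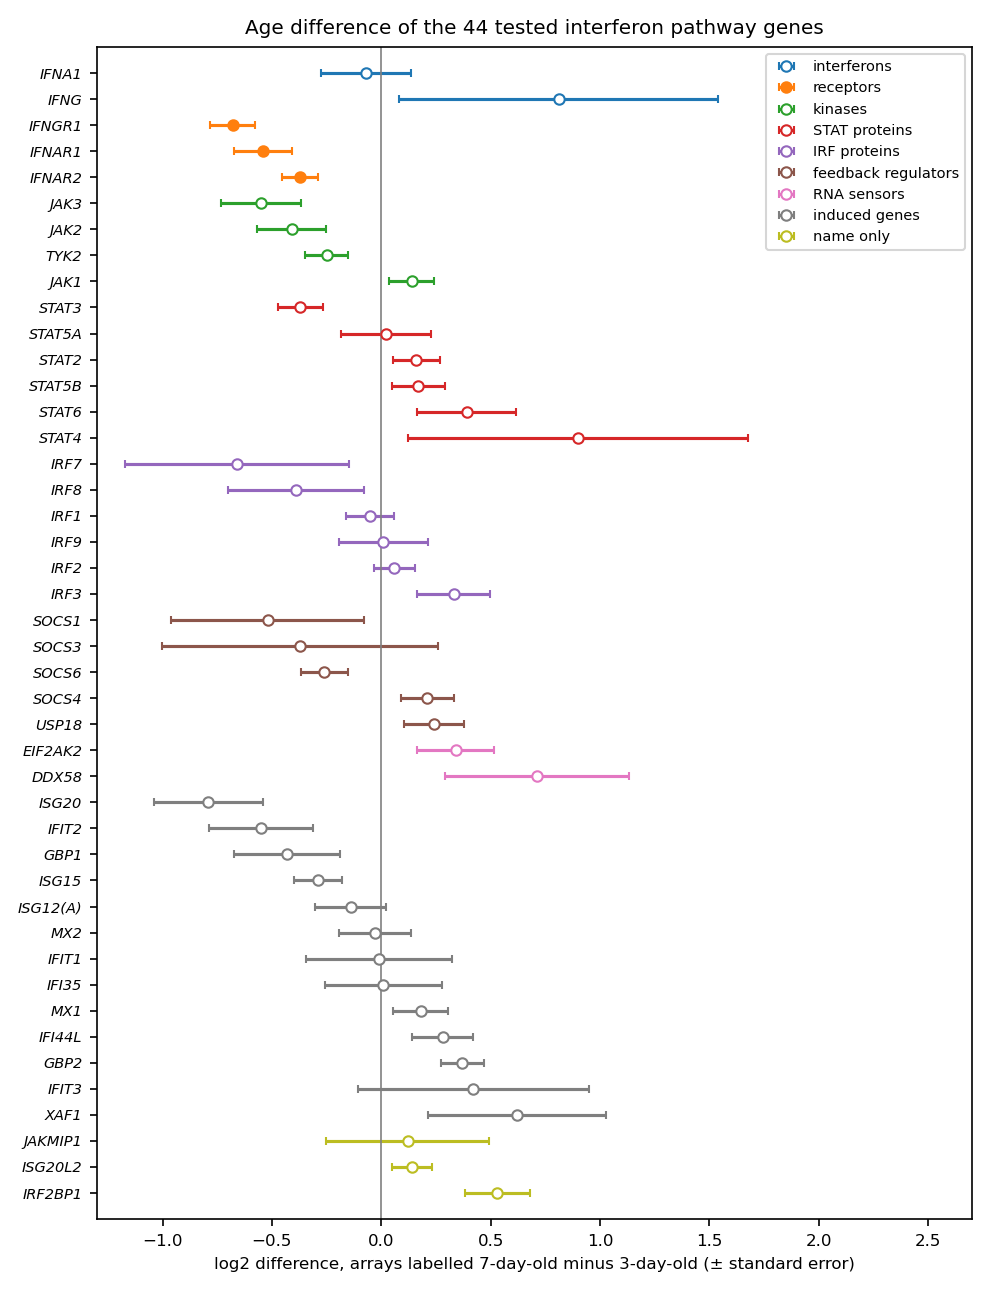
Log2 difference of each of the 44 tested genes, arrays labelled 7-day-old minus those labelled 3-day-old (n = 4 per age), grouped and coloured by role. Bars are ± 1 standard error of the limma fit, filled points have an adjusted p under 0.05, and only the 3 receptor genes, between -0.68 and -0.37, are filled.

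Among the interferons themselves, IFNA1, an alpha interferon, was the only 1 at or above the 20th percentile in all 8 arrays. Its intensity was 120.0, 85.8, 84.0 and 109.7 in the arrays labelled 3-day-old and 73.2, 121, 112 and 79.7 in those labelled 7-day-old. The ages overlapped and differed by -0.07 on the log2 scale (SE 0.206, limma adjusted p = 0.867). Alpha interferons form a family of near-identical genes, so this probe set may not belong to IFNA1 alone. IFNB1, the single beta interferon gene, stayed under the 20th percentile in all 8 arrays and was not tested. IFNG, the product of activated T and NK cells, reached the 20th percentile in 1 array, labelled 7-day-old, with a highest intensity of 29.2. It counts among the 44 tested genes, but passed the filter only through the group with its higher mean, so its fit is not read. Interferon lambda was not analysed here.

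The 3 receptor genes were each lower in every array labelled 7-day-old than in every array labelled 3-day-old. IFNGR1, the ligand-binding chain for interferon gamma, gave 934, 863, 932 and 1039.7 in the arrays labelled 3-day-old and 611, 569, 524 and 659 in those labelled 7-day-old. The lowest array of the first group stood above the highest of the second. The means were 942 ± 73.0 and 591 ± 57.8 (SD, n = 4), a 1.6-fold difference (log2 difference -0.68, SE 0.104, limma adjusted p = 0.0105).

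IFNAR1, the chain of the type I receptor that carries TYK2, gave 807, 983, 930.2 and 781 in the arrays labelled 3-day-old and 554, 527, 608 and 726 in those labelled 7-day-old. The groups did not overlap, though the highest of the second group, 726, came near the lowest of the first, 781. The means were 875 ± 96.6 and 604 ± 88.3 (SD, n = 4), a 1.45-fold difference (log2 difference -0.54, SE 0.133, limma adjusted p = 0.0426). IFNAR2, the chain that carries JAK1, gave 954, 913, 955 and 819 against 701, 725, 684 and 698, again without overlap. Its means were 910.3 ± 64.0 and 702 ± 17.3 (SD, n = 4), a 1.29-fold difference (log2 difference -0.37, SE 0.0828, limma adjusted p = 0.0317). A dimmer probe set of IFNAR2 had the same sign and was not called (log2 difference -0.25, adjusted p = 0.26).

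Of these calls, that of IFNGR1 held when any 1 of the 8 arrays was left out, with a highest adjusted p of 0.0376. IFNAR1 lost its call without each array in turn except the one labelled 7-day-old replicate 4 (adjusted p 0.0533 to 0.105), and IFNAR2 without each except 3-day-old replicate 4 (0.0655 to 0.0835). IL10RB, a chain shared by the receptors of interferon lambda and interleukin 10, was the other receptor gene tested. Its intensity was 157 ± 18.9 and 131 ± 18.9 (SD, n = 4), a log2 difference of -0.27 that was not called (adjusted p = 0.279).

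**Figure D2:**
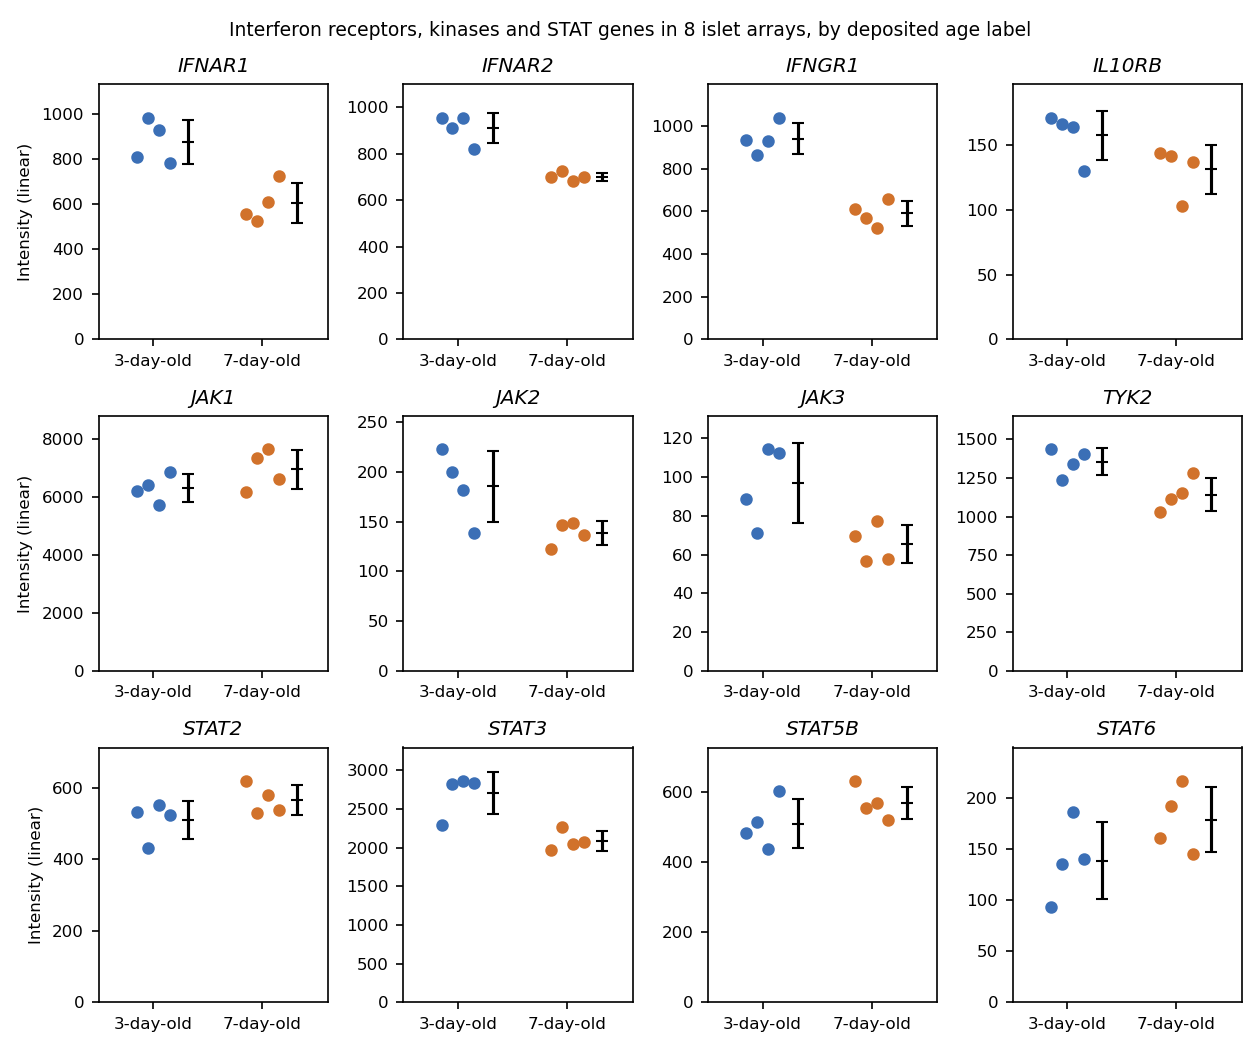
Intensity (linear, arbitrary units, from 0) of receptor, kinase and STAT genes in each array, with points for arrays and bars for the mean ± SD of 4 arrays per deposited age label. The points of the 2 ages are apart for IFNAR1, IFNAR2, IFNGR1 and STAT3 and mixed or touching for the others.

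The Janus kinases sit on the inner side of these receptors. None of the 4 passed the threshold. By limma and by the methods' test 3 had an unadjusted p under 0.05, as did 27.9% of all probe sets by limma, and all 3 had a lower mean in the arrays labelled 7-day-old. JAK2, which serves the interferon gamma receptor and several hormone receptors, gave 223, 199.8, 182 and 139 against 122, 147, 148 and 137. Only the array labelled 3-day-old replicate 4 fell within the other group (log2 difference -0.41, SE 0.157, limma adjusted p = 0.144). With any 1 array left out the difference ran from -0.54 to -0.31. JAK2 was called only without 3-day-old replicate 4 (adjusted p = 0.0419). That array lay against the difference, so the call adds nothing to the full fit. A second probe set of JAK2 differed by -0.03 (adjusted p = 0.893). JAK3, the kinase of the common gamma chain receptors of lymphocytes, gave 88.8, 71.4, 114 and 113 against 69.8, 56.9, 77.3 and 57.6, with 1 pair of arrays crossing (log2 difference -0.55, adjusted p = 0.101).

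TYK2, the kinase of IFNAR1, gave 1437, 1238, 1339.8 and 1404 against 1027, 1112, 1150.5 and 1281. The groups crossed at 1 array each (log2 difference -0.25, limma adjusted p = 0.151), and its 4 probe sets ran from -0.39 to 0.33. JAK1, which both receptors use, had means of 6309 ± 475 and 6963 ± 669.9 (SD, n = 4), with overlapping groups (log2 difference 0.14, adjusted p = 0.427). A second probe set of JAK1 had the opposite sign, at -0.49.

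The STAT proteins carry the signal to the nucleus. Of 6 STAT genes 0 were called by either test, and 1 had an unadjusted p under 0.05. STAT3, which many cytokines of the interleukin 6 family use, gave 2297, 2816, 2863 and 2834 in the arrays labelled 3-day-old and 1968, 2261, 2044 and 2066 in those labelled 7-day-old. The groups did not overlap, and replicate 1 of the first group lay far below its 3 companions and close to the other age. The means were 2702 ± 271 and 2085 ± 125 (SD, n = 4), a log2 difference of -0.37 (SE 0.102) that missed the threshold (limma adjusted p = 0.0599). With any 1 array left out the log2 difference ran from -0.45 to -0.34. Of these fits only that without 3-day-old replicate 1 called STAT3 (adjusted p = 0.0368). That array lay nearest to the other age, so the call adds nothing to the full fit.

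The other 5 STAT genes had differences above 0, from 0.02 to 0.90. STAT2, the partner of IRF9 in the complex that type I interferon activates, had means of 511 ± 53.7 and 567 ± 41.6 (SD, n = 4; log2 difference 0.16, limma adjusted p = 0.398). STAT5A differed by 0.02, STAT5B by 0.17 and STAT6, the factor of interleukin 4 and 13, by 0.39, with adjusted p from 0.307 to 0.955. STAT4, the factor of interleukin 12, reached the 20th percentile in 7 arrays, with 1 array labelled 3-day-old at 6.16 and the others between 39.1 and 96.4. Its difference of 0.90 had an adjusted p of 0.501, and its other probe set had the opposite sign, at -0.75.

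The IRF family binds the promoters of interferons and of the genes they induce. All 6 IRF genes were at or above the 20th percentile in all 8 arrays, 0 were called by either test, 0 had an unadjusted p under 0.05, and 3 differences lay on each side of 0. IRF1, a factor that interferon gamma induces, was nearly level at 471 ± 59.0 and 452 ± 14.2 (SD, n = 4; log2 difference -0.05, limma adjusted p = 0.802). IRF2, its antagonist, differed by 0.06 and IRF9, the DNA-binding part of the complex that holds STAT2, by 0.01. IRF3, which starts interferon beta transcription after RNA sensing, had means of 821 ± 173 and 1018 ± 83.9 (log2 difference 0.33, adjusted p = 0.244).

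IRF7, the factor that amplifies alpha interferon production, had the largest standard error of the 6. Its intensity was 144, 83.4, 93.7 and 205 in the arrays labelled 3-day-old and 31.3, 117, 142 and 71.3 in those labelled 7-day-old. The groups overlapped widely, and the difference of -0.66 had an SE of 0.511 (limma adjusted p = 0.452). IRF8, a factor of macrophages, dendritic cells and B cells, ran from 56.7 to 163 and from 59.9 to 94.6, with a difference of -0.39 (adjusted p = 0.471).

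The feedback genes damp the response once it has started. Of 5 such genes 0 were called by either test, and 1, SOCS6, had an unadjusted p under 0.05. SOCS6 gave 441, 369, 402 and 329 against 329.9, 323, 310.0 and 313, with the arrays labelled 7-day-old within a narrow range at the low end of the others (log2 difference -0.26, limma adjusted p = 0.154). SOCS1, an interferon-induced blocker of Janus kinases, differed by -0.52 (adjusted p = 0.487), and its 3 probe sets ran from -1.20 to -0.26. SOCS3, which acts mainly on STAT3 signalling, reached the 20th percentile in 3 arrays (adjusted p = 0.753). USP18, an interferon-induced protease that removes ISG15 from proteins and blocks the type I receptor at IFNAR2, gave 314, 249.9, 315 and 307 against 379, 279, 373 and 376. In each age replicate 2 stood well below the other 3 arrays, and the difference of 0.24 had an adjusted p of 0.303. SOCS4 differed by 0.21 (adjusted p = 0.305).

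The 2 RNA sensors among the genes are themselves induced by interferon. EIF2AK2, the kinase PKR that stops translation on double-stranded RNA, gave 347, 381, 377 and 316 against 479, 447, 327 and 582. Of the arrays labelled 7-day-old, 3 lay above all those labelled 3-day-old and 1 lay among them (log2 difference 0.34, SE 0.177, limma adjusted p = 0.255). DDX58, the viral RNA helicase RIG-I, reached the 20th percentile in 7 arrays and differed by 0.71 (SE 0.42, adjusted p = 0.323). Its other probe set, at 1.21, had the same sign and was not called.

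The induced genes are the usual readout of an active interferon response. There were 15, of which 13 were tested and 0 were called in either direction by limma. Unadjusted p was under 0.05 in 4, with 1 higher (GBP2) and 3 lower (IFIT2, ISG15 and ISG20), beside 27.9% of all probe sets, and the methods' test called GBP2. The differences ran from -0.79 to 0.62 with a median of -0.01, 6 above 0 and 7 below. OAS1, the oligoadenylate synthetase, reached the 20th percentile in 0 arrays and was not tested. The probe set read for RSAD2, the antiviral enzyme viperin, carries the name of a control and was left out of the test. It was at or above the 20th percentile in 3 arrays. Another probe set of RSAD2 was at or above it in 1 array, labelled 7-day-old, the group with its higher mean, so its fit is not read.

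GBP2, a guanylate-binding protein, had the smallest adjusted p of the induced genes. Its intensity was 100.4, 109, 119.6 and 112 in the arrays labelled 3-day-old and 159.8, 145, 132 and 135 in those labelled 7-day-old, without overlap. The means were 110.3 ± 7.91 and 143 ± 12.6 (SD, n = 4), a log2 difference of 0.37 (SE 0.0984, limma adjusted p = 0.0532). Its relative GBP1 had the opposite sign, with -0.43 (adjusted p = 0.301) and 3 probe sets from -0.61 to -0.33. IFI44L, a strongly interferon-induced gene, gave 414, 439, 461 and 407 against 479, 472, 682 and 475, also without overlap. Replicate 3 of the arrays labelled 7-day-old was far above the rest (log2 difference 0.28, adjusted p = 0.243).

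On the other side of 0, ISG20, an exonuclease that degrades viral RNA, gave 166, 111, 125 and 72.8 against 56.2, 79.6, 63.0 and 66.5. The array labelled 3-day-old replicate 4 fell among the other age (log2 difference -0.79, SE 0.247, limma adjusted p = 0.0847). With any 1 array left out the difference ran from -1.01 to -0.61. ISG20 was called only without 3-day-old replicate 4 (adjusted p = 0.0254), the array against the difference, so that call adds nothing to the full fit. ISG15, the ubiquitin-like modifier, gave 191, 164, 182 and 161 against 128, 134, 149.8 and 163, with 1 array of each age crossing (log2 difference -0.29, adjusted p = 0.14). IFIT2, which binds viral RNA, had means of 274 ± 43.8 and 192 ± 58.7 (SD, n = 4; log2 difference -0.55, adjusted p = 0.179), and its 3 probe sets ran from -0.80 to -0.55.

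The dynamin-like antiviral genes MX1 and MX2 differed by 0.18 and -0.03, with limma adjusted p of 0.397 and 0.923. For MX1 the intensity was 537, 546, 546 and 669 against 632, 554, 756 and 672, so that replicate 4 of the first group lay within the second. IFIT1 differed by -0.01 and IFIT3 by 0.42, IFI35 by 0.01 and ISG12(A) by -0.14, with adjusted p from 0.635 to 0.986. XAF1, a partner of the apoptosis inhibitor XIAP, differed by 0.62 (SE 0.407, adjusted p = 0.372) and, like IFIT3, was above the 20th percentile in 7 arrays.

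Over the 12 induced genes and sensors seen in all 8 arrays, the median deviation of an array from the gene's mean over its own age was between -0.09 and 0.09 on the log2 scale. In the arrays labelled 3-day-old, replicate 1 held the highest value in 4 of the 12 genes and the lowest in 2, and replicate 4 the highest in 1 and the lowest in 3. Replicate 2 of that label was above its own age mean in 3 of the 12 and highest in 0. Of the arrays labelled 7-day-old, replicate 4 was above its own age mean in 9 of the 12 and lowest in 0. Whether the genes moved together by array was not tested. Within an age, the median standard deviation of the tested genes between arrays was 0.26 and 0.22 on the log2 scale. The median size of their age difference was 0.34, and the median standard error of that difference was 0.17.

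**Figure D3:**
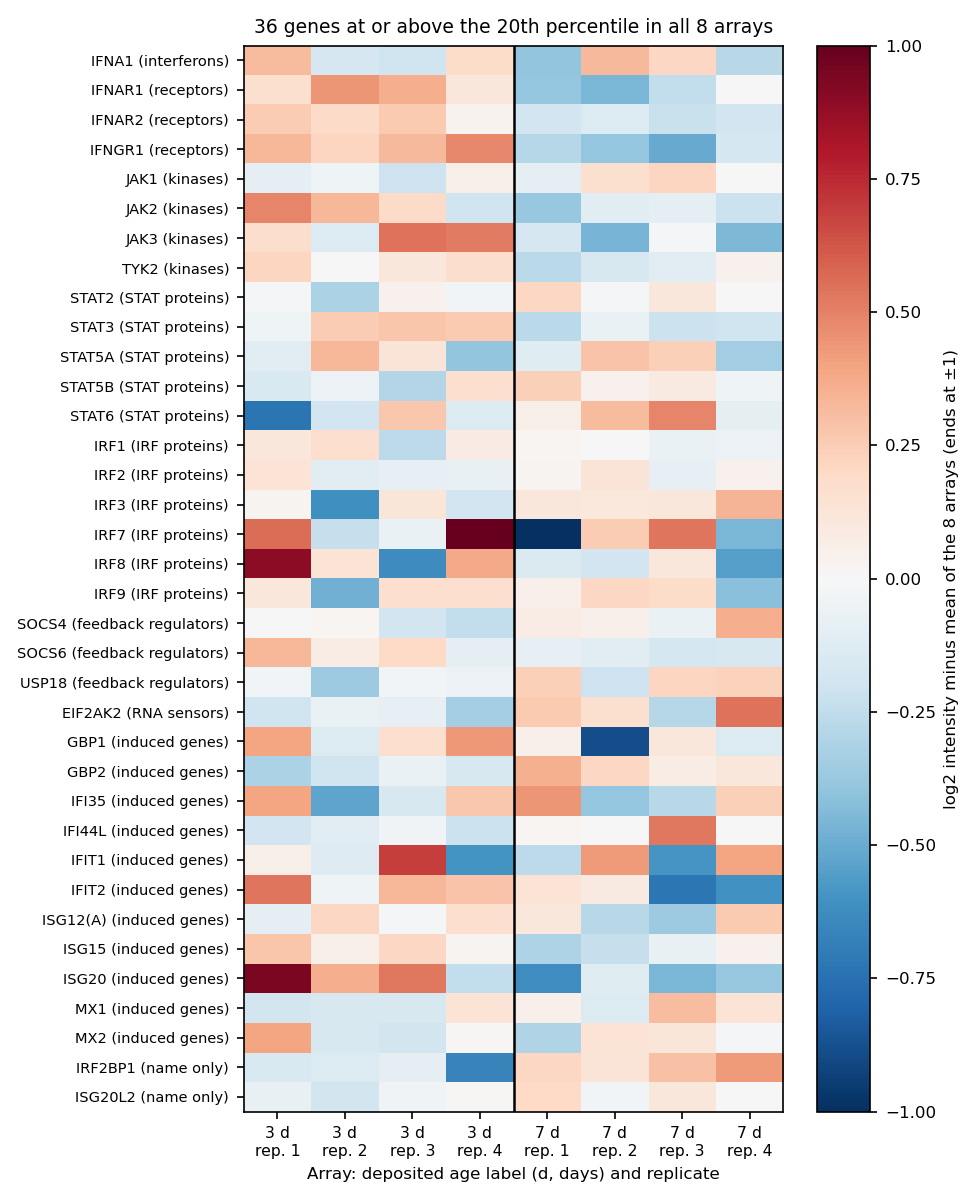
Heat map of the 36 genes at or above the 20th percentile in all 8 arrays, with arrays in columns by deposited age label and colour for the log2 intensity minus the gene's mean over the 8 arrays (ends at ±1, which IRF7 exceeds). The receptor rows split at the line between the ages, as do those of the induced genes GBP2 and IFI44L, while the rows of the IRF and other induced genes mix high and low arrays within each age.

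Of the 3 genes that share only a prefix, IRF2BP1, a corepressor that binds IRF2, gave 321, 324, 335 and 225 against 412, 389, 437 and 479. The groups did not overlap, and replicate 4 of the arrays labelled 3-day-old stood below its companions (means 301 ± 51.0 and 429 ± 38.4, SD, n = 4; log2 difference 0.53, SE 0.148, limma adjusted p = 0.0637). ISG20L2, a nucleolar exonuclease, differed by 0.14 (adjusted p = 0.37). JAKMIP1, a microtubule-binding partner of Janus kinases, reached the 20th percentile in 4 arrays and differed by 0.12 (adjusted p = 0.865).

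Several genes had more than 1 probe set, which allowed a check within the array. Of 17 genes with at least 2 tested probe sets, 11 had a single sign throughout and 6 had both (IFIT1, JAK1, MX2, STAT4, STAT5A and TYK2). Over all 70 tested probe sets of the genes, 3 were called lower and 0 higher by limma, which is 4.29% beside the 10.7% of all probe sets. The probe sets of STAT5A ran from -0.87 to 0.39 and those of MX2 from -0.03 to 0.32, so the sign for these genes depends on the probe set read.

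**Figure D4:**
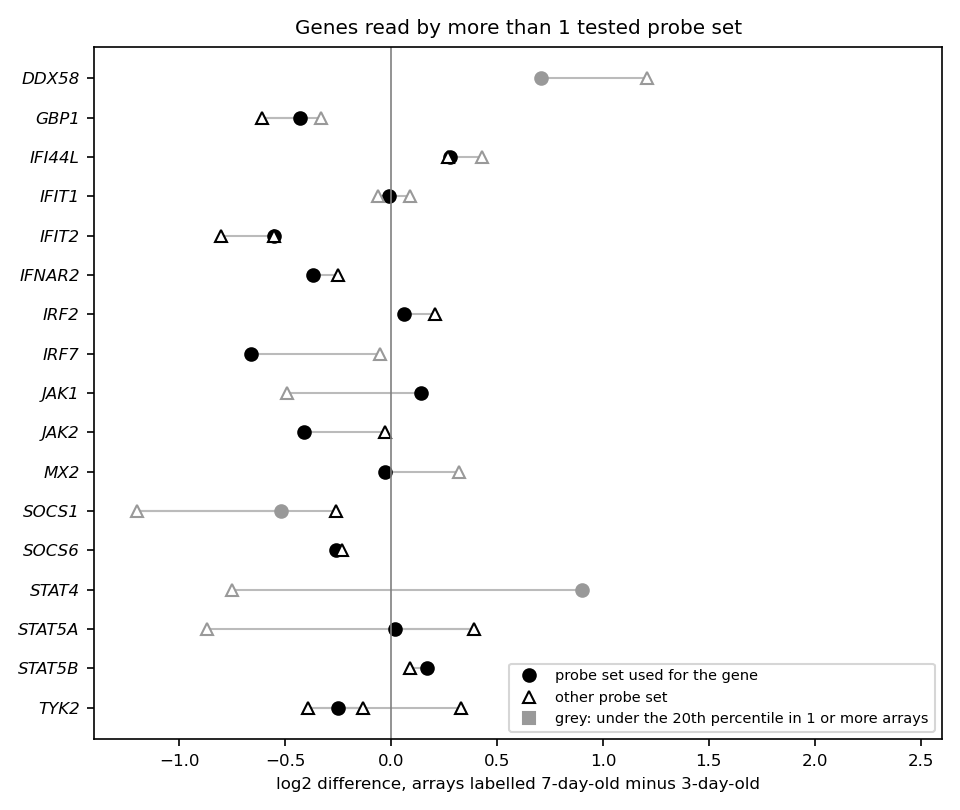
Log2 difference (arrays labelled 7-day-old minus those labelled 3-day-old) of every tested probe set of the 17 genes that have more than 1. Circles mark the probe set that stood for the gene, triangles the others, and grey those under the 20th percentile in at least 1 array, and 6 genes have points on both sides of 0.

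Further genes of the pathway were read from lists that the rule does not take, 71 tested genes in all, of which 6 were lower and 0 higher in the arrays labelled 7-day-old by limma. This is 8.45%, beside 10.7% of all probe sets called in either direction and 12.2% with 1 probe set per gene. All 6 calls were lower, for which the matching share of all probe sets is 5.47% (5.21% for higher). At an unadjusted p under 0.05, which 27.9% of all probe sets had (13.8% lower and 14.1% higher), 12 were lower and 1 higher. The methods' test called 4 lower and 0 higher, beside 9.85% of all probe sets. The count of 6 fell to 3 when replicate 1, 2 or 3 of either age was left out. Those fits called 4.67% to 7.66% of all probe sets. Among 24 other interferon-induced genes the 1 called was WARS, the tryptophanyl-tRNA synthetase, with 855 ± 14.4 and 609 ± 28.5 (SD, n = 4; log2 difference -0.49, limma adjusted p = 0.00991), and the median of the list was -0.04. Among 14 genes of antigen processing the 1 called was PSMB10, a subunit of the immunoproteasome, with 467 ± 30.8 and 324 ± 13.7 (log2 difference -0.53, adjusted p = 0.0118), and the list's median was -0.18.

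Of 9 nucleic acid sensors and adaptors IRAK1, a kinase of Toll-like and interleukin 1 receptors, was the 1 called, at 1127 ± 45.4 and 911 ± 11.5 (SD, n = 4; log2 difference -0.31, limma adjusted p = 0.0369). Of 8 negative regulators of JAK and STAT signalling DUSP6 was called, at 680.4 ± 40.0 and 399.6 ± 103 (log2 difference -0.80, adjusted p = 0.0329). DUSP6 is known mainly as a phosphatase of the kinase ERK, not of Janus kinases. Of 15 other receptors and ligands that use these kinases, LIF, a cytokine of the interleukin 6 family that signals through STAT3, and IL10 were called. LIF stood at 198 ± 55.4 and 73.3 ± 21.4 (log2 difference -1.44, adjusted p = 0.0146). Its probe set is 1 of the 108 that the study chose on these same samples. The difference of LIF is thus not independent evidence, and its sign is opposite to the study's. IL10, an anti-inflammatory cytokine, was dim at 40.9 ± 5.53 and 27.9 ± 3.80 (log2 difference -0.55, adjusted p = 0.0467), with 6 arrays at or above the 20th percentile. The medians of these 3 lists were -0.04, -0.07 and -0.41.

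Markers of other cells in the tissue also differed between the ages, and in bulk samples fewer cells of a type cannot be told apart from less RNA per cell. The counts of calls here and in the next paragraph stand beside 5.47% of all probe sets called lower and 5.21% called higher. Some called markers, such as PECAM1 and BLNK, are among the 108 probe sets that the study chose on these same samples. The summed intensity of 13 tested endothelial markers ran from 2431 to 2941 in the arrays labelled 3-day-old and from 1198 to 1473 in those labelled 7-day-old, with 6 called lower and 0 higher and a median log2 difference of -1.14. TIE1, among the 6, reached the 20th percentile only in arrays labelled 3-day-old, which leaves 5 calls seen in both ages. For 18 macrophage and dendritic cell markers the ranges were 2645 to 6453 and 1497 to 2661, with 3 called lower, of which LY86 was likewise seen only at 3 days by label, and a median of -1.01. For 10 common leukocyte markers they were 2212 to 2473 and 1595 to 1909, with 1 lower (LCP1) and a median of -0.39. In that list 3 differences lay above 0 and 7 below, and ITGB2 was higher without overlap (0.54, adjusted p = 0.0512). PTPRC, the defining CD45 gene of leukocytes, reached the 20th percentile in 1 array. For 17 fibroblast and stellate markers the ranges were 62211 to 81475 and 46169 to 52349, with 8 lower and a median of -0.74, and for 10 duct markers 61197 to 67255 and 54264 to 57411, with 3 lower and a median of -0.46.

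Few lymphocyte markers were measured. For 10 T and NK cell markers the summed intensity ran from 404 to 556 and from 402 to 482, with 1 called higher (CD247) and 0 lower. In that list 2 differences lay above 0 and 8 below, with a median of -0.38. For 4 B and plasma cell markers the sum ran from 1737 to 2453 and from 593 to 787, with 2 lower. These 2, BLNK and CD40, carried the B cell sum, while the other 2 markers had differences above 0 and were not called. Acinar markers (6 tested) overlapped, from 29823 to 32543 and from 25612 to 36224, with 1 lower. For 15 islet endocrine markers the sum ran from 151632 to 193592 and from 183704 to 223310, with 7 higher and 0 lower. The receptor genes were lower in the same arrays in which the endothelial, common leukocyte, fibroblast, duct and B cell sums were lower. In each of these lists except that of duct, some markers had differences above 0. The part of cell makeup in the receptor result was not tested.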

How the data were processed

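Islets of 4 pigs of each age were measured on the Affymetrix porcine GeneChip, 1 array per pig. The authors deposited 1 linear intensity for each probe set on each array, scaled to a common mean once 2% is trimmed at each end. The sources used here do not name the software that summarised the probes. For its own comparison the study used a per-probe-set median normalization, which was not done in the deposited intensities, before GeneSpring GX was used. Its methods provide for another round of amplification where cRNA was low, and do not say whether any sample had one.

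Intensities under 1 were set to 1 and put on the log2 scale. Of 23999 probe sets other than the 124 controls, 21574 reached the 20th percentile of an array at least once and were tested. The deposited labels gave the groups. The ages were compared with lmFit and eBayes of limma 3.58.1 (R 4.3.3), two-sided and without covariates, at a threshold of 0.05 after Benjamini-Hochberg adjustment over every tested probe set. Adjusted p-values given without a tool are from this fit. The methods' test is the unpaired test with equal variances on the same log2 values. Before use, the fit was tested on simulated data in which a small part of the probe sets was changed. It called 28% of the 1.5-fold changes, 42% of the 2-fold, 70% of the 4-fold and 84% of the 8-fold. Fewer probe sets were changed there than were called in the data (10.7%), and they were drawn from all tested probe sets, dim ones included. These rates are therefore not those of the genes described here. A gene that was not called may still differ. Gene symbols came from the platform annotation, where 10069 probe sets have 1 symbol, 198 several and 13732 none. The Entrez numbers of all 47 genes matched RefSeq. Genome positions are not given, since no genome of the array's build was used.

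The members and lists were chosen with earlier results of these data known. The text names every gene past the threshold, each interferon, IRF, STAT, JAK and SOCS gene, each induced gene at or above the 20th percentile in at least 4 arrays, and the called genes of each further list. Python 3.11.15 with numpy 2.4.6, pandas 2.3.3, scipy 1.17.1 and matplotlib 3.10.9 served for the rest.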

Additional observations from a re-analysis of the deposited data

Results flagged for a closer look

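Among the 88 sets of 4 arrays (44 genes at 2 ages), 9 held a single array far from its 3 companions by Dixon's criterion, in which the gap to the nearest companion, as a ratio to the whole range, exceeds the 95% critical value for 4 values. Chance alone marks about 1 set in 20. The values are given without an explanation.

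In the arrays labelled 3-day-old, IRF2 stood at 589 in replicate 1 against 498 to 507 in the others (ratio 0.893), and STAT3 at 2297 in replicate 1 against 2816 to 2863 (0.924). IRF9 stood at 111 in replicate 2 against 168 to 174 (0.914), and USP18 at 249.9 in replicate 2 against 307 to 315 (0.897). MX1 stood at 669 in replicate 4 against 537 to 546 (0.923), and IRF2BP1 at 225 in replicate 4 against 321 to 335 (0.89).

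In the arrays labelled 7-day-old, USP18 stood at 279 in replicate 2 against 373 to 379 (0.946), IFI44L at 682 in replicate 3 against 472 to 479 (0.956), and IRF3 at 1144 in replicate 4 against 974 to 978 (0.976). USP18 was thus low in 1 array of each age.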

How the results depend on the processing

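The number of arrays, 4 per age, limits the precision. Of 769 alternative values for the 44 tested genes, 710 kept direction and call, 20 lost a call, 11 gained one and 28 changed sign, none of the last with an adjusted p under 0.63. The count of genes called higher was 0, and 1 under array quality weights (GBP2, adjusted p = 0.038), the methods' test (GBP2, 0.044), the stricter filter (IRF2BP1, 0.0197) and trend and robust variances (IRF2BP1, 0.025). The count called lower was 3 and ranged from 1 to 4 when 1 array was left out (it was 1 on leaving out replicates 2 or 3 of the younger label, or any of 1 to 3 of the older). The fits without 1 array called 4.67% to 8.59% of all probe sets, against 10.7% with every array. With the replicate number as a block the count called lower was 0. That block left 0 of 21574 probe sets called (5264 at an unadjusted p under 0.05) and IFNGR1 at an adjusted p of 0.0599. The labels do not say that a number is shared, and same-numbered arrays did not deviate together (correlations -0.0135 to 0.00487, 0 of 4 arrays nearest to their own number). The numbers were therefore not taken as pairs, and whether same-numbered pigs shared a litter or a day was not tested. IFNAR1 also lost its call without the filter (0.054) and by the methods' test (0.0545), and IFNAR2 with the mean of all probe sets (0.0792). STAT3 was called under the stricter filter (0.0202) and with trend and robust variances (0.0116), and with the mean of all probe sets GBP1 (0.022) and IFIT2 (0.0384) were called. The stricter filter kept 21 of the genes and called 5, beside 27.0% of all its probe sets, and trend and robust variances called 5 beside 16.2%. Genes whose ages did not overlap were 3 higher (3 to 6 without 1 array) and 4 lower (4 to 8, and 7 with the mean of all probe sets). Leaving out an array cannot undo a gap between the ages, so the counts without 1 array could only stay or rise. The matching share of all probe sets was not worked out for them. The median difference ran from -0.06 to 0.06 without 1 array. In the further lists, genes called higher went from 0 to 1 under the stricter filter and under trend and robust variances, and genes called lower from 6 to 0 with the replicate block and 3 to 5 without 1 array. Quantile normalization gave 0.01 for IFIT1 and 0.03 for MX2, and the mean of all probe sets gave 0.14 for MX2, -0.18 for JAK1 and -0.15 for STAT5A. When 1 array was left out the sign also changed for IFI35 (-0.16 to 0.14), IFIT1 (-0.21 to 0.22), IFIT3 (-0.13 to 0.73), IFNA1 (-0.19 to 0.05), IRF9 (-0.14 to 0.15), JAKMIP1 (-0.07 to 0.47), MX2 (-0.10 to 0.10), SOCS3 (-0.85 to 0.11) and STAT5A (-0.10 to 0.14). The causes were not tested.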

Other observations

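The study names 1 probe set IFI16, an interferon-inducible sensor of DNA, which the platform annotation lists under the symbol LOC100156073, so the rule did not take it. Its intensity was 62.7, 72.9, 79.5 and 39.5 in the arrays labelled 3-day-old and 21.2, 26.1, 21.4 and 14.2 in those labelled 7-day-old, without overlap. The 4 arrays at or above the 20th percentile all carried the 3-day-old label, so the probe set passed the filter only through the group where it is high, and no fold or test is given. The study chose this probe set on these same samples, so the difference is not independent evidence, and by the deposited labels its sign is opposite to the study's.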
